A study of Mus musculus with 28 samples.

Results

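The genes described here are 9 that carry out or supply the first oxidation step of drug metabolism in the liver: the cytochromes P450 Cyp1a2, Cyp2b10, Cyp2c29, Cyp2e1, Cyp3a11 and Cyp2d10, the P450 reductase Por, and the flavin monooxygenases Fmo1 and Fmo5. All probe sets that the array annotation gives to these genes were taken, whatever their values. Of the 9 genes, 8 had at least 1 probe set of their own, 10 probe sets among the 12422 that are not controls. Por had none under its symbol and has no value here. A further probe set carries both Cyp3a16 and Cyp3a11 and was not used. All 8 measured genes were bright enough to be among the 5487 genes tested, of 8251 genes in all.

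RNA of mouse liver was hybridized to 28 arrays of the Affymetrix MG-U74Av2 type. The mice were wild type (WT) or lacked Aag, the DNA glycosylase encoded by Mpg that removes alkylated bases, and they were untreated or had been given methyl methanesulfonate (MMS), a DNA methylating agent. The WT groups held 3 untreated arrays and 2, 3, 2 and 2 arrays at 6, 12, 24 and 48 h after MMS. The Aag null groups, called Aag below, held 4 untreated arrays and 3, 2, 4 and 3 arrays at the same times. The labels give no strain, sex, age, MMS dose, vehicle control or time of day, and do not say how the Aag null allele was made. Whether arrays of a group come from different animals is likewise unstated, and the p-values therefore speak only of the spread among these samples.

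Cytochromes P450 are membrane-bound heme enzymes of the endoplasmic reticulum that insert oxygen into drugs, steroids and fatty acids, with electrons passed to them by the reductase Por. Cyp2b10 is the classical target of the nuclear receptor CAR (Nr1i3), Cyp3a11 of PXR (Nr1i2) and Cyp1a2 of the aryl hydrocarbon receptor (Ahr), and several of these enzymes are made mainly by hepatocytes around the central vein. Flavin monooxygenases oxidize nitrogen and sulfur atoms of drugs with a flavin in place of heme, and are generally not induced by the same foreign compounds.

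Values are log2 signals after quantile normalization, and a difference is a difference of group means on that scale. Calls rest on an adjusted p under 0.05 in limma, a linear model fitted over all genes, and SE is the standard error from that fit. Hepatocyte genes were bright in every array: the mean log2 level of the 4 hepatocyte markers on the array, of 7 listed, lay between 10.08 and 10.55. The probe set of Mpg was dim in all groups, at 2.38 to 2.87 in WT arrays and 2.27 to 2.60 in Aag arrays, so it does not check the labels, and its place relative to the deleted part is unknown here. Arrays formed 2 sets by the mean signal of 9 added hybridization controls. It was 10.25 to 11.65 in 5 arrays, the 3 WT untreated and Aag untreated replicates 3 and 4, and 6.42 to 9.22 in the other 23, which include every treated array. The excess of the Gapdh 3′ probe set over the 5′ one, a measure of RNA and labelling quality, divided with them (0.63 to 0.92 against -0.37 to 0.21). In WT liver, MMS and array set therefore cannot be told apart. Transcripts typical of female liver marked 3 Aag arrays, the third untreated replicate and the first pair at 24 h, where Cyp2b9 read 7.73 to 8.22 against 2.49 to 4.21 in the other 25 arrays. The 2 WT 6 h arrays correlated at 0.837 across genes, less than the arrays of any other group did on average.

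The 21 treated arrays all belong to 1 array set, and within them the genes were compared between late times (24 and 48 h) and early times (6 and 12 h) after MMS. Their hybridization control means still ran from 6.42 to 9.22. Lowest were 6 h replicate 1 of WT and Aag (6.42 and 6.59) and the WT 48 h arrays (7.55 and 7.19). Over both genotypes 3 of the 8 measured genes were called, all higher late: Cyp2b10 by 2.13-fold, Cyp1a2 by 1.40-fold and Cyp2c29 by 1.35-fold. Of all genes tested 2.84% were called in this comparison, which was chosen after the values had been seen. The median difference of the 8 genes was 0.27, beside 0.01 over all genes tested. In the order of Cyp1a2, Cyp2b10 and Cyp2c29, all 3 stayed called when any of the 21 treated arrays was left out, with largest adjusted p of 0.00517, 0.00170 and 0.0141.

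Cyp2b10, the phenobarbital-inducible P450, was the gene with the widest late rise. After MMS it read 5.68 and 5.52 in the WT 6 h arrays and 5.64, 5.34 and 5.30 at 12 h. At 24 h it read 7.07 and 6.20, and at 48 h 6.11 and 6.35. In Aag liver it read 4.93, 5.37 and 5.31 at 6 h, 5.46 and 5.58 at 12 h, 6.55, 7.21, 6.28 and 6.47 at 24 h, and 6.83, 6.22 and 6.82 at 48 h. All 11 late arrays, from 6.11 to 7.21, thus lay above all 10 early arrays, from 4.93 to 5.68. The late difference over both genotypes was 1.09 (SE 0.16, 95% interval 0.76 to 1.43, limma adjusted p = 0.000264). In Aag liver alone it was 1.26 (SE 0.21, limma adjusted p = 0.00867), a call that ended without Aag 12 h replicate 1 (adjusted p = 0.0999) or replicate 2 (adjusted p = 0.0549). In WT liver alone it was 0.92 (SE 0.24) and missed the threshold (limma adjusted p = 0.0747). It was 0.96 without WT 6 h replicate 1 and lowest, at 0.70, without WT 24 h replicate 1. The WT value passed without the female-typical arrays (limma adjusted p = 0.0329) and with array set as a term (limma adjusted p = 0.0106). Its size of 0.92 could not change in these settings, only the estimated spread. All treated WT arrays are in the lower set and none is female-typical. Where leaving out an array leaves 1 in a group, that array is assumed to vary like those of the other groups. The 2 female-typical arrays among the treated, at 6.55 and 7.21, are part of the Aag 24 h group, and without them the late arrays ran from 6.11 to 7.07, still above every early array. In bulk liver, fewer cells that make a transcript and less of it per cell cannot be told apart.

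Cyp1a2, which oxidizes caffeine and aromatic amines, was low early after MMS in WT liver. Its WT values were 8.70 and 8.58 at 6 h, 8.68, 8.81 and 8.78 at 12 h, 9.39 and 9.66 at 24 h, and 9.22 and 9.33 at 48 h. The 5 early WT arrays all lay below the 4 late ones. In Aag liver it read 8.95, 9.50 and 9.11 at 6 h, 8.98 and 9.07 at 12 h, 9.38, 9.25, 9.44 and 9.39 at 24 h, and 9.53, 9.16 and 9.48 at 48 h. Early and late Aag arrays overlapped, because 1 of the 6 h arrays, at 9.50, stood among the late ones. The late difference was 0.70 in WT liver (SE 0.12, limma adjusted p = 0.00253) and 0.27 in Aag liver (SE 0.11, limma adjusted p = 0.433), and over both genotypes it was 0.49 (SE 0.08, 95% interval 0.32 to 0.65, limma adjusted p = 0.000758). The WT call ended with array weights (0.69, adjusted p = 0.507). The difference between the genotypes in this quantity, Aag minus WT, was -0.43 (SE 0.16) and did not pass the test (limma adjusted p = 0.811).

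Cyp2c29, a member of the large Cyp2c family of steroid and fatty acid hydroxylases, moved by less. In WT liver it read 5.55 and 5.15 at 6 h, 5.23, 5.25 and 5.22 at 12 h, 5.71 and 5.59 at 24 h, and 5.47 and 6.17 at 48 h after MMS. In Aag liver it read 5.47, 5.13 and 5.25 at 6 h, 5.28 and 5.18 at 12 h, 5.60, 5.52, 5.57 and 5.47 at 24 h, and 5.83, 5.81 and 5.82 at 48 h. Late Aag arrays all lay above early ones, by a narrow margin, and in WT liver the ranges overlapped through 1 array at 6 h and 1 at 48 h. The late difference was 0.43 over both genotypes (SE 0.08, 95% interval 0.27 to 0.60, limma adjusted p = 0.00312). It was 0.44 in WT liver (SE 0.12, limma adjusted p = 0.0856) and 0.42 in Aag liver (SE 0.11, limma adjusted p = 0.0921), each short of the threshold. The WT value passed without WT 6 h replicate 1 (0.54, adjusted p = 0.0122) or without WT 48 h replicate 1 (0.62, adjusted p = 0.0111), and was 0.34 and 0.27 without the other array of each pair (adjusted p = 0.313 and 0.572).

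**Figure D1:**
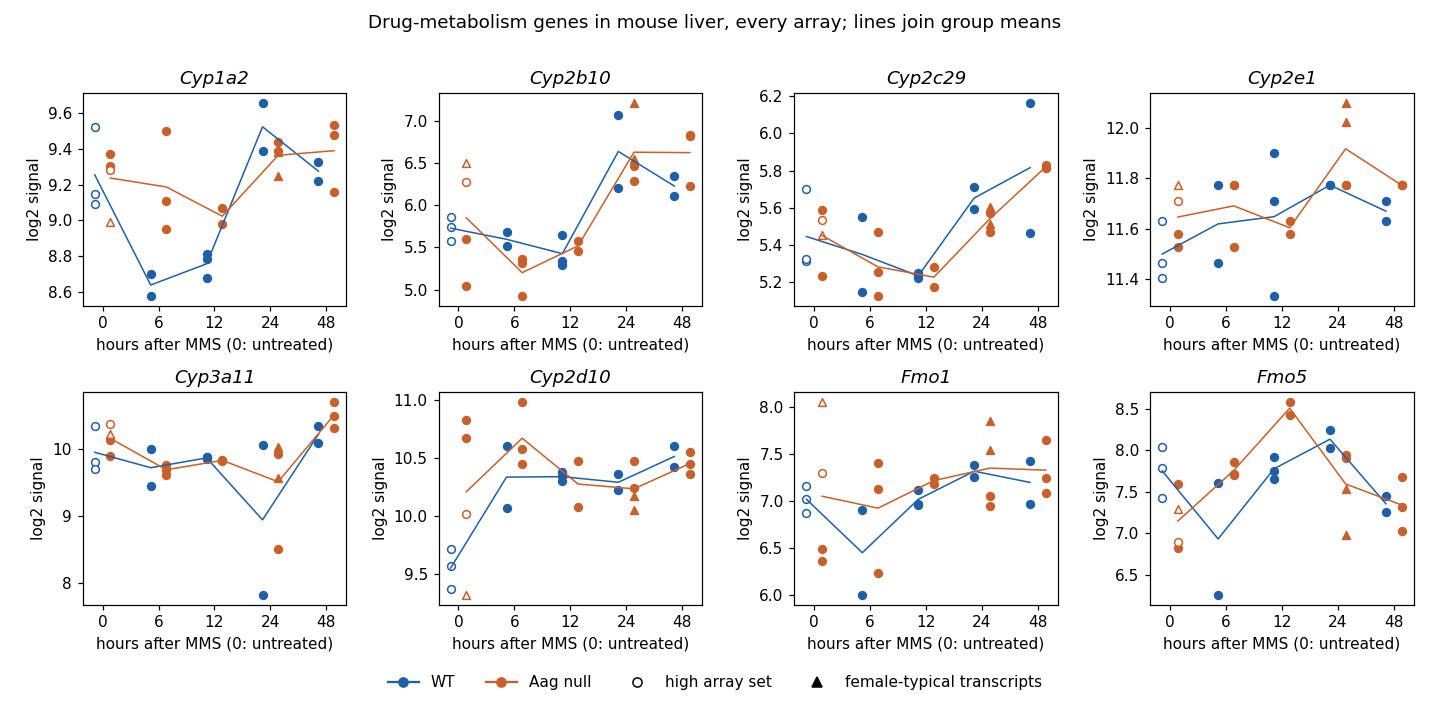
The log2 signal of each of the 8 measured genes (vertical axis) is plotted for every array against hours after MMS, with WT in blue and Aag null in orange, lines joining group means, open symbols for the high array set and triangles for arrays with female-typical transcripts. Cyp2b10 sits at 4.93 to 5.68 in all 6 and 12 h arrays and at 6.11 to 7.21 in all 24 and 48 h arrays.

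Each genotype on its own gave 1 call among the 8 genes in this comparison, Cyp1a2 in WT liver and Cyp2b10 in Aag liver. The share called over all genes tested was 1% in WT and 0.328% in Aag liver. Fmo5 in WT liver, 0.39 and not called, was 0.73 without WT 6 h replicate 1 (adjusted p = 0.0324) and 0.05 without replicate 2 (adjusted p = 0.970). The other 5 genes were not called late against early over both genotypes. Cyp2e1 differed by 0.14 (SE 0.07, limma adjusted p = 0.440), Fmo1 by 0.40 (SE 0.19, limma adjusted p = 0.462), and Cyp3a11, Cyp2d10 and Fmo5 by 0.02, -0.03 and -0.14 with SE of 0.21, 0.14 and 0.15. The 95% intervals for these 3 were -0.41 to 0.45, -0.32 to 0.26 and -0.46 to 0.18, so changes of that size are not excluded by these arrays.

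**Figure D2:**
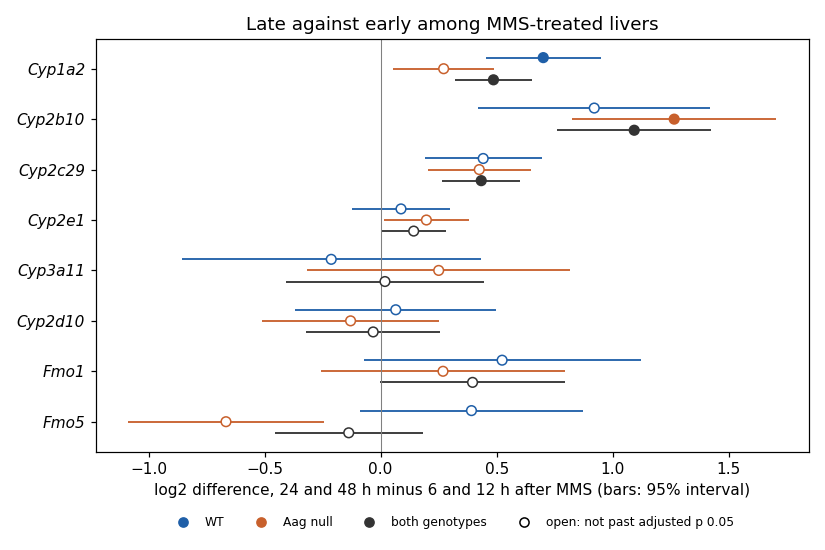
For each gene the log2 difference of 24 and 48 h minus 6 and 12 h after MMS is plotted with its 95% interval, for WT, Aag null and both genotypes, and filled points passed an adjusted p of 0.05. Cyp1a2, Cyp2b10 and Cyp2c29 are filled over both genotypes, at 0.49, 1.09 and 0.43.

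The promoters of the 3 genes that were higher late are shown because these genes moved in the same direction. They are windows of 300 bases around the start that the RefSeq promoter table (GRCm38.p6) uses for each gene, 5′ to 3′, at chr9:57683606-57683905 on the minus strand for Cyp1a2, chr7:25897408-25897707 on the plus strand for Cyp2b10 and chr19:39286835-39287134 on the plus strand for Cyp2c29. Capitals mark the letters TATAAA, the core of a TATA box, or GCGTG, the core of the element bound by the aryl hydrocarbon receptor, on either strand (TTTATA and CACGC on the strand shown).
Cyp1a2: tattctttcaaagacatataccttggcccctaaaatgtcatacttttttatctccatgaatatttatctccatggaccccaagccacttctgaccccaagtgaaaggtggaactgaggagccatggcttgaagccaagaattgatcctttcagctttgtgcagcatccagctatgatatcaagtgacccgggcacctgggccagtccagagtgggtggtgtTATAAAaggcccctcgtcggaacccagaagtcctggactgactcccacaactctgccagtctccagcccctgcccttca
Cyp2b10: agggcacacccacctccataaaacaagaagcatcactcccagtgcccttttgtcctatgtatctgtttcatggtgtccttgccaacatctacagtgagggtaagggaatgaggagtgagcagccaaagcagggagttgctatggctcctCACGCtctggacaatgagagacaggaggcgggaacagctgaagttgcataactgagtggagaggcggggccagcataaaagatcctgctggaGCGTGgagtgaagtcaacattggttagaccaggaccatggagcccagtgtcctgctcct
Cyp2c29: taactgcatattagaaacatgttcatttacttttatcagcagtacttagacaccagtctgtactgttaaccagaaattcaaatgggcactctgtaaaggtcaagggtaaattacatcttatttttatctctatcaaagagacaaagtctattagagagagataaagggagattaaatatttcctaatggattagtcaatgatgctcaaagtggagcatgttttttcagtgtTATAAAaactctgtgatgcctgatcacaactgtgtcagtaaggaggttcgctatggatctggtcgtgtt
TATAAA begins at position -29 from the start used for Cyp1a2 and at position -19 from that used for Cyp2c29, which lies inside the outer RefSeq boundary of that gene, and is absent from the Cyp2b10 window, which instead holds GCGTG at positions -101 and -9. Promoters of 8 of the 9 genes were at hand, all but that of Fmo1. TATAAA occurred in 6 of these 8 and in 13.6% of 32817 promoters of the same length. In Cyp3a11 and Fmo5 it lay at -234 and -195, much farther from the start than in the others. GCGTG occurred in 2 of the 8, Cyp2b10 and Por, and in 32.4% of all promoters. AGAACA, a glucocorticoid receptor half-site, occurred in 2, Cyp3a11 and Cyp2d10, against 19% of all. CACGTG, the E-box of CLOCK and BMAL1, and TTATGTAA, the D-box of DBP, TEF and HLF, occurred in 0 of the 8, and in 7.15% and 0.935% of all promoters. Each motif was sought on both strands, and TATAAA was added after the promoters had been seen. None of the matches is shown to be a bound site.

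Against untreated liver, 4 of 32 tests in WT liver (8 genes at 4 times) were called. They were Cyp1a2, lower at 6 and 12 h, and Cyp2d10, higher at 12 and 48 h. In all genes tested the share called in WT liver was 16.3%, 21%, 13.8% and 14.4% in order of time, so the count of 1, 2, 0 and 1 of 8 genes at these times is near the background. In Aag liver 1 test was called, Fmo5 at 12 h, where the share over all genes was 0.437%. That share was 0.51% at 6 h, 1.08% at 24 h and 0.911% at 48 h, with 0 of the 8 genes called there by limma. At each of these times 2 of the 8 had an unadjusted limma p under 0.05. So did 761, 823 and 930 of the 5487 genes tested, in order of time.

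Cyp1a2 read 9.52, 9.09 and 9.15 in untreated WT liver, above all 5 WT arrays at 6 and 12 h (8.58 to 8.81). The difference was -0.61 at 6 h (SE 0.16, limma adjusted p = 0.0127) and -0.50 at 12 h (SE 0.14, limma adjusted p = 0.0180), or 1.53-fold and 1.41-fold lower. Adding a term for array set, whose size only the untreated Aag arrays can inform, gave -0.82 (adjusted p = 0.0736) at the earlier time and -0.70 (adjusted p = 0.0995). Without WT untreated replicate 1 they were -0.48 (adjusted p = 0.0617) and -0.36 (adjusted p = 0.113), and the 12 h call also ended without WT 12 h replicate 1 (-0.46, adjusted p = 0.0701). Fits with array weights and with the WT 6 h and untreated groups alone also ended the 6 h call (adjusted p = 0.833 and 0.416). By 24 and 48 h WT Cyp1a2 stood 0.27 above (SE 0.16) and 0.02 above (SE 0.16) its untreated mean, neither of them called. In untreated Aag liver Cyp1a2 read 9.37, 9.30, 8.99 and 9.28, and differences from it ran from -0.21 at 12 h (SE 0.15) to 0.15 at 48 h (SE 0.13), with 0 calls.

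**Figure D3:**
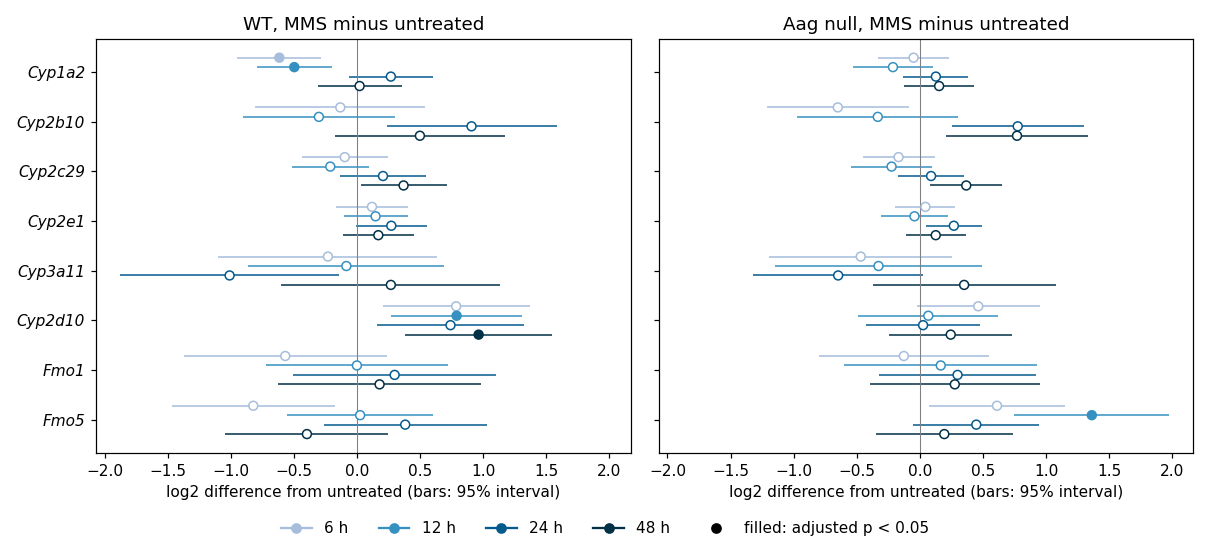
The log2 difference from untreated liver of the same genotype is plotted for each gene at 6, 12, 24 and 48 h after MMS, with 95% intervals, for WT on the left and Aag null on the right, and filled points passed an adjusted p of 0.05. Filled points are Cyp1a2 at 6 and 12 h (-0.61 and -0.50) and Cyp2d10 at 12 and 48 h (0.79 and 0.96) in WT, and Fmo5 at 12 h (1.36) in Aag null.

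Untreated Cyp2b10 values spread more in Aag than in WT liver. The gene read 5.75, 5.58 and 5.86 in WT liver. In Aag liver it read 5.60 and 5.04 in the lower set and 6.50 and 6.27 in the high set, 1 of these 2 female-typical. Differences from untreated liver were 0.91 at 24 h (SE 0.33, limma adjusted p = 0.0655) and 0.50 at 48 h in WT, and 0.78 (SE 0.25, limma adjusted p = 0.144) and 0.77 (SE 0.27, limma adjusted p = 0.157) in Aag liver. Against the 2 Aag untreated arrays of the lower set, the Aag values were 1.31 (SE 0.24, limma adjusted p = 0.00763) at 24 h and 1.30 (SE 0.26, limma adjusted p = 0.0379) at 48 h. The WT values were, once array set was a term, 1.97 (adjusted p = 0.00436) and 1.56 (adjusted p = 0.0225). The size of that term rests on the untreated Aag arrays alone. Their high-set pair lay above the untreated WT arrays of the same set (6.27 and 6.50 against 5.58 to 5.86). Early Cyp2b10 differences were below 0 in both genotypes, from -0.65 (Aag at 6 h, SE 0.27) to -0.13 (WT at 6 h, SE 0.33), none called. Their sign turned when array set was a term, to 0.93 at 6 h and 0.76 at 12 h in WT liver and 0.20 at 12 h in Aag liver.

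Cyp2c29 in untreated liver read 5.32, 5.70 and 5.32 in WT and 5.59, 5.23, 5.45 and 5.53 in Aag, between the early and late treated values. Its largest difference from untreated was 0.37 at 48 h in each genotype (SE 0.16 in WT and 0.14 in Aag, limma adjusted p = 0.137 and 0.181). In WT liver the 48 h group is 2 arrays far apart, 5.47 and 6.17, and the difference was 0.72 without the lower (adjusted p = 0.0140) and 0.02 without the higher (adjusted p = 0.970).

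Cyp2d10, of a P450 family with close relatives in the mouse, has 2 probe sets that went different ways. The brighter, used in the tests, carries the suffix that marks probes shared between similar transcripts. In untreated WT liver it read 9.57, 9.37 and 9.72, below all 9 treated WT arrays (10.07 to 10.61). The difference in WT liver was 0.79 at 6 h (SE 0.28, limma adjusted p = 0.0586), 0.79 at 12 h (SE 0.25, limma adjusted p = 0.0291), 0.74 at 24 h (SE 0.28, limma adjusted p = 0.0826) and 0.96 at 48 h (SE 0.28, limma adjusted p = 0.0251). In untreated Aag liver the same probe set read 10.83 and 10.67 in the arrays of the lower set and 9.32 and 10.02 in those of the high set. It was thus 10.02 or less in the 5 arrays of the high set and 10.05 or more in the other 23. With the array set as a term the sign of both WT calls reversed, to -0.29 at 12 h and -0.12 at 48 h (adjusted p = 0.675 and 0.846). The 12 h call also ended under median centring (adjusted p = 0.195), with values as deposited (adjusted p = 0.0790), and when any of 5 of its 6 arrays was left out (adjusted p from 0.0656 to 0.0963), the exception being WT untreated replicate 3. The 48 h call ended without WT untreated replicate 2 (adjusted p = 0.0709), WT 48 h replicate 1 (adjusted p = 0.0710) or WT 48 h replicate 2 (adjusted p = 0.170), and with array weights (adjusted p = 0.0913). Averaging both probe sets ended both calls, at 0.36 for 12 h and 0.41 for 48 h (adjusted p = 0.127 and 0.137). The dimmer probe set read 9.20, 9.13 and 9.21 in untreated WT liver and 8.54 to 9.29 in treated WT arrays, with differences of -0.42 at 6 h (SE 0.17), then -0.07, 0.09 and -0.14 at the later times, none called.

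**Figure D4:**
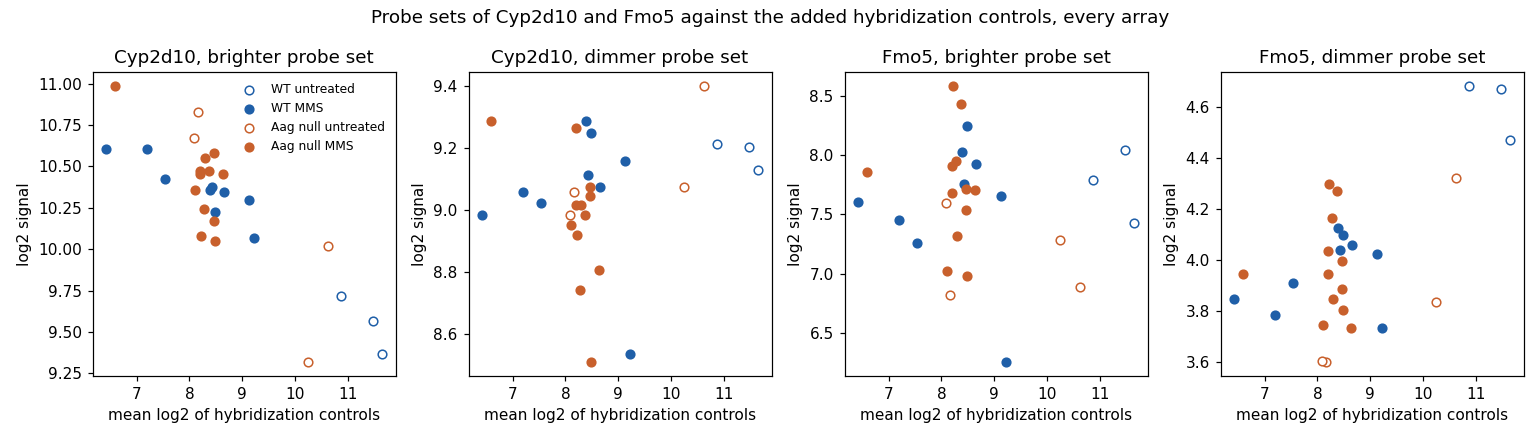
The log2 signal of the 2 probe sets of Cyp2d10 and the 2 of Fmo5 (vertical axes) is plotted for each array against the mean log2 signal of the 9 added hybridization controls, with WT in blue, Aag null in orange and untreated arrays open. The brighter Cyp2d10 probe set reads 9.32 to 10.02 in the 5 arrays of the high set, at 10.25 or more on the horizontal axis, while its dimmer probe set reads 9.07 to 9.40 there.

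Cyp2e1, the ethanol-oxidizing P450, held nearly the same level in all 28 arrays, from 11.33 to 12.10. At this brightness quantile normalization gives arrays the same value where the gene has the same rank, so only 11 distinct values occur. As deposited, Cyp2e1 read 11.47, 11.26 and 11.54 in untreated WT liver and 11.49 to 11.88 in treated WT arrays. None of its 8 differences from untreated liver was called. They ran from -0.04 (Aag at 12 h, SE 0.13) to 0.27 (WT and Aag at 24 h, SE 0.14 and 0.11). The 2 highest normalized values, 12.10 and 12.02, were the female-typical arrays at 24 h, which read 11.86 and 11.65 as deposited.

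Cyp3a11, the main PXR target among the P450s, read 9.81, 9.70 and 10.35 in untreated WT liver and 9.90 to 10.38 in untreated Aag liver. In most treated arrays it lay between 9.45 and 10.71, but 2 arrays at 24 h stood well below, WT replicate 2 at 7.82 and Aag replicate 3 at 8.51. Other arrays of those groups read 10.07 in WT and 9.57, 10.04 and 9.93 in Aag liver. The differences at 24 h, -1.01 in WT (SE 0.42, limma adjusted p = 0.115) and -0.65 in Aag (SE 0.32, limma adjusted p = 0.353), rest on these arrays and were not called. The WT value without replicate 1 of 24 h, which leaves the low array alone to stand for the group, was -2.13 (adjusted p = 0.00356), and without the low array it was 0.11 (adjusted p = 0.914). At 48 h it read 10.35 and 10.10 in WT and 10.71, 10.32 and 10.50 in Aag liver. Each range overlapped that of the untreated arrays of its genotype (9.70 to 10.35 and 9.90 to 10.38). The differences were 0.27 (SE 0.42) in WT and 0.35 (SE 0.35) in Aag liver, neither called.

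Fmo5, a flavin monooxygenase of liver and gut, gave the single call of Aag liver against untreated. Untreated Aag liver read 6.82, 7.59, 7.29 and 6.89. After MMS it read 7.86, 7.70 and 7.71 at 6 h, 8.43 and 8.59 at 12 h, 7.53, 6.98, 7.95 and 7.91 at 24 h, and 7.02, 7.68 and 7.32 at 48 h. The 12 h arrays were the highest of the genotype, and all 6 and 12 h arrays lay above all untreated ones. The difference at 12 h was 1.36 (SE 0.30, 95% interval 0.75 to 1.98, limma adjusted p = 0.0404), a 2.57-fold rise. It kept its size but not its call when either Aag 12 h array or Aag untreated replicate 3 or 4 was left out (1.28 to 1.44, adjusted p from 0.0687 to 0.522), and with only lower-set untreated arrays as the base it was 1.30 (adjusted p = 0.143). With both Fmo5 probe sets averaged it was 0.90 (SE 0.18, adjusted p = 0.0269). At 6 h the difference was 0.61 (SE 0.26, limma adjusted p = 0.288).

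In WT liver Fmo5 read 8.04, 7.43 and 7.79 untreated, 7.61 and 6.25 at 6 h, 7.65, 7.76 and 7.92 at 12 h, 8.24 and 8.03 at 24 h, and 7.26 and 7.45 at 48 h. The 6 h difference, -0.82 (SE 0.31, limma adjusted p = 0.0743), was set by the array at 6.25, without which it was -0.14 (adjusted p = 0.770). Without the other 6 h array it was -1.499 (adjusted p = 0.00320), a value from the array at 6.25 alone. The dimmer Fmo5 probe set, of a type that can match several transcripts, read 4.47 to 4.68 in untreated WT liver, above each of the other 25 arrays (3.60 to 4.32). Within untreated Aag liver it read 3.60 and 3.60 in the lower array set and 3.83 and 4.32 in the high set. In a fit of every probe set, its differences from untreated WT liver were -0.82, -0.57, -0.50 and -0.76 in order of time, all called (adjusted p from 0.00147 to 0.0387), while in Aag liver it was 0.44 higher at 12 h (SE 0.15, adjusted p = 0.281). With the 2 probe sets averaged, the WT differences of -0.82 at 6 h and -0.58 at 48 h were called (adjusted p = 0.00653 and 0.0459).

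Fmo1, which acts on tertiary amines and thioethers, spread widely within groups. In untreated liver it read 7.02, 6.87 and 7.16 in WT and 6.49, 6.36, 8.05 and 7.30 in Aag arrays. Treated arrays ran from 6.00, WT 6 h replicate 2, to 7.85, Aag 24 h replicate 1, a female-typical array. The 3 female-typical arrays read 7.54 to 8.05 and the other 25 arrays 6.00 to 7.65. Differences from untreated liver ran from -0.57 (WT at 6 h, SE 0.39) to 0.30 (both genotypes at 24 h), with 0 calls. Untreated Aag arrays divided by array set, 6.49 and 6.36 in the lower and 8.05 and 7.30 in the high set. With array set as a term the WT differences were 0.68, 1.25, 1.55 and 1.43 in order of time (adjusted p from 0.0701 to 0.516), so that the sign at 6 h turned, and the Aag ones were 0.50 to 0.92, again with 0 calls.

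The genotypes were compared at each time to ask whether loss of Aag altered these transcripts. In untreated liver 0 of the 8 genes differed by limma, while 4.5% of all genes tested were called. An unadjusted limma p under 0.05 was reached by 2 of the 8 genes and by 1078 of the 5487 genes tested. The largest differences, Aag minus WT, were 0.66 for Cyp2d10 (SE 0.24, limma adjusted p = 0.110) and -0.61 for Fmo5 (SE 0.26, limma adjusted p = 0.191). With its 2 probe sets averaged the Fmo5 value was -0.69 and was called (limma adjusted p = 0.0170). That average includes the dim probe set, which read higher in the untreated WT arrays than in any other array. Cyp1a2 and Cyp2c29 differed by -0.02 (95% interval -0.30 to 0.26) and 0.01 (-0.28 to 0.29). The Cyp2d10 value was 0.12 with array set as a term (adjusted p = 0.774), and 0.96 and called without Aag untreated replicate 3 (adjusted p = 0.00667), the female-typical array of the high set. All 3 untreated WT arrays are in the high set, and 2 of the 4 untreated Aag arrays are not. After MMS 0 of 8 genes differed at any time, and the share of all genes called was 0.182%, 0.0182%, 0% and 0% at 6, 12, 24 and 48 h. In the same order, 2, 1, 0 and 0 of the 8 had an unadjusted limma p under 0.05. So did 268, 70, 68 and 194 of the 5487 genes tested.

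Over all treated times 0 of 8 genes differed and 0.2% of all genes were called. An unadjusted limma p under 0.05 was reached by 1 of the 8 and by 141 of the 5487 genes tested. At 6 h, with 3 Aag and 2 WT arrays, Cyp1a2 was 0.55 higher in Aag liver (SE 0.16) and Fmo5 was 0.83 higher (SE 0.31). Neither was called (limma adjusted p = 0.372 and 0.730). Both were called without WT 6 h replicate 1 (0.61 and 1.51, adjusted p = 0.0479 and 0.0115) and neither without WT 6 h replicate 2 (0.49 and 0.15, adjusted p = 0.366 and 0.831), each time with 1 WT array left. Without Aag 6 h replicate 2 the Cyp1a2 value was 0.39. The difference between the genotypes in their response, averaged over times, called 0 of 8 genes and 1.77% of all genes. At an unadjusted limma p under 0.05 stood 2 of the 8 and 867 of the 5487 genes tested. This response difference was largest for Fmo5, at 0.86 (SE 0.30, limma adjusted p = 0.149). This Fmo5 value was 1.03 without WT 6 h replicate 1 and 0.69 without WT 6 h replicate 2. With its probe sets averaged it was 0.84 and passed (limma adjusted p = 0.0247). That average includes the dim probe set, which read 4.47 to 4.68 in untreated WT liver, all of the high array set, and lower in every other array. For Cyp2d10, at -0.62 (SE 0.27, limma adjusted p = 0.263), the value was -0.08 with array set as a term (adjusted p = 0.887) and -0.92 without Aag untreated replicate 3 (adjusted p = 0.0278). The difference in the late against early quantity called 0 of 8 (2 at an unadjusted p under 0.05) and 0.0182% of all genes. There Fmo5 was the widest, at -1.06 (SE 0.31, limma adjusted p = 0.695), and it was -1.40 without WT 6 h replicate 1 (adjusted p = 0.0262) and -0.72 without replicate 2 (adjusted p = 1.000).

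Other genes of drug metabolism were read from lists. In the late against early comparison over both genotypes, where 2.84% of all genes were called, 1 of 19 tested other microsomal P450s was called, the fatty acid hydroxylase Cyp4a10, higher late by 1.19 (SE 0.32, limma adjusted p = 0.0420). Its relative Cyp4a14 differed by 1.55 (SE 0.49) and was not called (limma adjusted p = 0.0957). Of 14 regulators 0 were called. Nr1i3, the receptor CAR, differed by 0.06 (SE 0.11), Nr1i2, the receptor PXR, by 0.19 (SE 0.06, limma adjusted p = 0.123), Ahr by 0.20 (SE 0.21), and Dbp, a clock-driven transcription factor, by 0.60 (SE 0.28, limma adjusted p = 0.441). Of 6 electron transfer partners 0 were called, the nearest being the cytochrome b5 gene Cyb5a at 0.17 (SE 0.07, limma adjusted p = 0.308). Of 9 genes of heme synthesis and breakdown 1 was higher, Alad, which makes porphobilinogen, by 0.41 (SE 0.10, limma adjusted p = 0.0195), while Alas1, the rate-limiting enzyme of heme synthesis, differed by 0.28 (SE 0.32) and the heme oxygenase Hmox1 by -0.04 (SE 0.07).

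In the same comparison, with its 2.84% of all genes called, 4 of 21 other oxidizing, reducing and hydrolyzing enzymes were higher late and 0 lower: Adh1, the alcohol dehydrogenase (0.37, SE 0.08), Aldh3a2, which oxidizes fatty aldehydes (0.74, SE 0.15), Akr1c13 (0.30, SE 0.07) and the carboxylesterase Ces1g (0.70, SE 0.17). Of 13 conjugation genes 2 were higher and 1 lower. Papss2, which makes the sulfate donor, rose by 0.98 (SE 0.22), the glucuronosyltransferase Ugt2b34 by 0.46 (SE 0.12), and the nicotinamide methyltransferase Nnmt fell by 0.42 (SE 0.11). Of 7 transporters 1 was higher, the phospholipid exporter Abcb4 (0.37, SE 0.09, limma adjusted p = 0.0216). Of these 10 genes outside the group studied here, with values as deposited Papss2, Aldh3a2 and Adh1 kept an adjusted p under the threshold (0.0191, 0.0336 and 0.0357), and the other 7 had adjusted p from 0.0630 to 0.190. Medians of the lists lay from 0.04 to 0.30, beside 0.01 over all genes tested.

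Markers of liver zones and of other cells were set beside the late rise. Of 6 listed markers of pericentral hepatocytes, where Cyp1a2 and Cyp2e1 are made, 5 had a probe set. Their mean log2 level was 6.06 to 6.38 in early and 6.21 to 6.52 in late treated arrays, with Lect2 higher late (0.45, SE 0.10, limma adjusted p = 0.0123) and Glul not (0.02, SE 0.12), and the periportal P450 Cyp2f2 differed by 0.05 (SE 0.15). The 5 of 7 periportal markers on the array ran from 8.80 to 9.23 early and from 8.83 to 9.29 late. The 10 of 11 Kupffer cell and macrophage markers ran in WT liver from 4.54 to 5.01 early and from 4.76 to 5.13 late. In Aag liver they ran from 5.20 to 5.55 early and from 4.85 to 5.21 late. The part of these cells in the late rise or in the genotype differences was not tested, and neither was that of time of day.

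Against untreated WT liver, 7 of 14 regulators were called at 12 h, where 21% of all genes were. Of the 14, 6 were higher and 1 was lower. Nr1i3 rose by 1.18 (SE 0.19, limma adjusted p = 0.000236), the clock-output factor Tef by 1.33 (SE 0.20, limma adjusted p = 8.56e-05), the AHR partner Arnt by 0.67 (SE 0.16) and Nr1i2 by 0.42 (SE 0.12), and Keap1, the inhibitor of NRF2, fell by 1.26 (SE 0.18, limma adjusted p = 5.62e-05). Ahr differed by 0.18 (SE 0.37). With the array set as a term, Tef remained called (1.83, adjusted p = 0.000551), while Nr1i3 (1.09, adjusted p = 0.0612), Nr1i2 (0.34), Arnt (0.01) and Keap1 (-0.89, adjusted p = 0.0713) were not. Of 19 other microsomal P450s 1 was higher at 12 h, Cyp3a13 (1.36, SE 0.23), and 3 were lower, together near the 21% over all genes. Among the lower was Cyp2c70, a bile acid hydroxylase (-1.86, SE 0.33, limma adjusted p = 0.000385). Alas1 differed by 1.52 at 12 h (SE 0.57, limma adjusted p = 0.0618) and Hmox1 by 0.18 (SE 0.13), neither called. Of 9 tested Kupffer cell and macrophage markers 3 were lower at 12 h, and of 4 hepatocyte markers Ttr was lower (-0.86, SE 0.11), and their part in these differences was not tested. Like those of the regulators, the WT differences of these P450s and markers cannot be told apart from array set. In Aag liver at 24 h, 1 regulator was called, Nr1i3, which rose by 0.81 (SE 0.17, limma adjusted p = 0.0223). The dioxin-inducible P450 Cyp1a1 was too dim to be tested (3.15 to 3.90 in all arrays).

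The 8 genes did not vary as a block among the 21 treated arrays. Pearson correlations, given as a description over arrays that in part share a time and genotype, were highest for Cyp2b10 with Cyp2c29 (r = 0.68) and with Cyp1a2 (r = 0.64). They were lowest for Cyp2e1 with Cyp2d10 (r = -0.49) and Cyp2b10 with Cyp2d10 (r = -0.38), which were -0.33 and -0.22 over the 19 arrays without female-typical transcripts. Outside the group, the genes most like Cyp2b10 over these arrays were Rad51b (r = 0.86), Abcb4 (r = 0.78) and Fggy (r = 0.77). Those most like Cyp1a2 were Sardh (r = 0.82), Pigr (r = 0.81) and Igfbp2 (r = 0.78), and those most like Cyp2c29 were Ghr (r = 0.84), Klkb1 (r = 0.84) and Chchd3 (r = 0.82). The nearest to Cyp3a11 was only Ybx1 (r = 0.61), and for Fmo5 the nearest was Trp53inp2 (r = 0.83). The nearest gene to Cyp2e1 was Cyp2c38 (r = 0.81, and 0.67 over the 19 treated arrays without female-typical transcripts), to Cyp2d10 Psmc3 (r = 0.87) and to Fmo1 Dsg2 (r = 0.86).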

How the data were processed

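Livers of WT and Aag null mice were hybridized to 28 Affymetrix MG-U74Av2 arrays, in 10 genotype and time groups set by the labels. The deposited table holds 1 value per probe set and array, taken as log2 signal from its range of 0.69 to 13.16. The steps by which the authors made these log2 values from scans are unstated in the labels and files used. Array medians spanned 0.215, above the limit of 0.1, so the values were quantile normalized. Of 12488 probe sets, 66 controls were left out. Symbols came from the platform annotation: 10855 probe sets had 1 symbol, 396 several and 1237 none, and 10839 of the 10855 symbols were in RefSeq's gene table. For each gene the brightest probe set was kept, and a gene entered the test if 2 or more arrays showed it above their own median (5487 of 8251). limma 3.58.1 in R 4.3.3 fitted 1 mean per group over all 28 arrays (trended eBayes, 18 residual degrees of freedom), with Benjamini-Hochberg adjustment in each of 19 comparisons and calls at 0.05. The fit was tested on simulated data. Named genes were all members, up to 4 genes of each list with the smallest adjusted p in the comparison described, a fixed set whatever their values (Nr1i3, Nr1i2, Ahr, Alas1, Hmox1, Cyp1a1, Cyp2b9, Cyp4a10, Cyp4a14, Glul, Cyp2f2 and Dbp among them), and the 3 genes most correlated with each member over the 21 treated arrays. Members and lists were chosen with earlier results of these data known, and the comparison over both genotypes and the motif TATAAA after the values were seen. Alternatives were the deposited values, median centring, every gene whatever its brightness, averaged probe sets, every probe set, a replicate block, array weights, only the groups compared, array set as a term, the lower-set untreated arrays, no female-typical arrays, and each array left out. Members of the Cyp2b, Cyp2c, Cyp2d and Cyp3a families have close relatives whose transcripts the probes may share.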

Additional observations from a re-analysis of the deposited data

Results flagged for a closer look

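By group means, the response of Fmo5 at 6 h after MMS went opposite ways in the genotypes. All 3 Aag arrays lay above the untreated Aag mean and both WT arrays lay below the untreated WT mean, with differences of 0.61 and -0.82, so that Aag minus WT was 1.43. This difference at a single time was not tested. The WT 6 h arrays stood far apart, at 7.61 and 6.25, and the higher lay within the untreated WT range (7.43 to 8.04). Without the array at 6.25 the WT difference was -0.14. The untreated means, 7.75 in WT and 7.15 in Aag liver, also enter this value, and those groups differ in array set. A single outlying array was sought only in the groups of 4, untreated Aag and Aag at 24 h, and in none of these 16 sets of values did one stand apart. Groups of 2 or 3, WT at 6 h among them, were not tested in this way.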

How the results depend on the processing

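The late against early difference over both genotypes called 3 of the 8 genes under every alternative that was run, and 3 with any treated array left out. Calls in the WT responses numbered 4, and 2 with array weights, 2 with array set as a term and 7 without the female-typical arrays (1 to 5 with an array left out). With array set as a term none of the 4 calls remained, and the 2 called were Cyp2b10 at 24 and 48 h. The Cyp2d10 differences reversed there to -0.29 at 12 h and -0.12 at 48 h. The single call in the Aag responses became 0 with deposited values, median centring, no brightness filter, every probe set, only the groups compared or no female-typical arrays, 3 with array weights, and 2 with array set as a term or with the lower-set untreated arrays (0 to 1 with an array left out). With the replicate block it also became 0, and Fmo5 at 12 h was 1.43 (adjusted p = 0.0704). Apart from leaving out single arrays, only array weights and averaged probe sets kept the Fmo5 call. The 2 calls with array set as a term, and the 2 with the lower-set untreated arrays, were Cyp2b10 at 24 and 48 h. Labels do not say whether replicate numbers pair the arrays. In deviations from group means, 36 of 106 same-number pairs correlated above 0.1 (median -0.03, highest 0.92). Pairs of different number were not compared, so pairing is neither shown nor excluded. The untreated genotypes differed in 0 genes, and in 1 with the mean of probe sets or without female-typical arrays (0 to 1). Genotypes at each time after MMS gave 0 calls, and 1 with array weights or only the groups compared (0 to 2). Late against early gave 1 call in WT, 0 with array weights and 2 with array set as a term or without female-typical arrays (1 to 4), and 1 in Aag, 4 with array weights and 2 with only the groups compared (0 to 1). The difference of responses gave 0, and 1 with the mean of probe sets (0 to 1), and that of late against early 0 (0 to 1). The causes were not tested. Array set as a term cannot change the size of a late against early difference, as all treated arrays are in 1 set. Leaving out the female-typical arrays, all of them Aag, cannot change the size of a WT late difference. Groups of 2 to 4 arrays limit the precision.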
